A study of Gallus gallus with 17 samples.

Results

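Cytosolic ribosomal protein genes were described in the fat of 3 lines of chickens, all males of 3 weeks. Members were the genes whose annotated symbol starts with RPL or RPS and a digit, together with RPLP0, RPLP1 and RPLP2 of the ribosomal stalk; kinases of the RPS6K family were left out. RPSA, which the rule also names, was not analysed here. The rule found 67 genes among the 13008 genes with a probe set of 1 symbol, 43 with RPL symbols of the large subunit and 24 with RPS symbols of the small subunit. The measured values were not used to choose the genes, but each gene was read from 1 probe set, the brightest on average over the 17 arrays.

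The lines were Fayoumi M 5.1 with 5 arrays, Leghorn GHs 13 with 6 arrays and a broiler line with 6 arrays. Broilers are bred for fast growth and meat, Leghorns for egg laying, and Fayoumi is a breed of Egyptian origin that is leaner than broilers. The study set out to find pathways associated with leanness, and each line was 1 group with no treatment. Arrays of a line are named biological replicates with no word on how birds were sampled, so a p-value rests on the spread between arrays. Each line stands for its whole genetic background, so no difference can be assigned to fatness alone.

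The cytosolic ribosome is made of a small subunit, which reads the messenger RNA, and a large subunit, which joins amino acids. Nearly every one of its proteins is present in a single copy per ribosome, and cells keep their synthesis balanced. In mammals the mRNAs begin with a run of pyrimidines, through which the mTOR and LARP1 pathway adjusts their translation, so mRNA level alone does not give the output of protein. A separate set of nuclear-encoded proteins builds the ribosome of mitochondria.

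Values are log2 signals per probe set as normalized and deposited by the authors, and they run up to 16.2. A signal was taken as above background when it exceeded 2.29, which 95% of 80 control probe sets (blanks and reporters) did not exceed. Signals of different probe sets also depend on probe affinity, so the order of genes by signal is not an order of mRNA abundance. In whole tissue, fewer cells of a type and less RNA per cell cannot be told apart.

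Some arrays stood apart or went against their labels. Leghorn 3 and 6 and broiler 2, 3 and 4 lay between 0.21 and 0.477 on the first principal component, against -0.191 to -0.125 for the other 12 arrays; no Fayoumi array was among the 5. The 3' minus 5' signal of ACTB, which grows as RNA degrades, was 1.49 to 1.92 on the 5 arrays and 1.91 to 2.70 on the other 12. On a scale that puts broiler at 0 and Leghorn at 1, the array labelled Leghorn 2 was at 0.0583 and the array labelled broiler 1 at 1.0, whereas the other Leghorn arrays lay at 0.879 to 0.999 and the other broiler arrays at -0.0204 to 0.129. Leghorn 1 carried high skeletal muscle markers, described with RPL3L. Leaving out the 5 arrays that stood apart kept broiler 1, 5 and 6 and Leghorn 1, 2, 4 and 5. Fits without the 5 arrays thus rest in part on the arrays labelled broiler 1 and Leghorn 2 and on Leghorn 1.

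Nearly all members gave strong and steady signals. Of the 67 genes, 66 were above background on all 17 arrays, against 70.9% of the 13008 genes. The median member had a mean signal of 14.44, and 56 members had a mean of at least 13. RPS23, a protein of the decoding centre, averaged 15.45 ± 0.10 in Fayoumi (SD, n = 5), 15.37 ± 0.12 in Leghorn (n = 6) and 15.39 ± 0.02 in broiler (n = 6). RPS3A averaged 15.34 ± 0.08 in Fayoumi, 15.29 ± 0.14 in Leghorn and 15.34 ± 0.07 in broiler. RPL17, RPL35 and RPS20 completed the group of 5 with the highest signals, with means over all arrays of 15.31, 15.31 and 15.30. For RPS23, RPS3A, RPL17, RPL35 and RPS20 the ranges of the 3 lines overlapped.

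**Figure D1:**
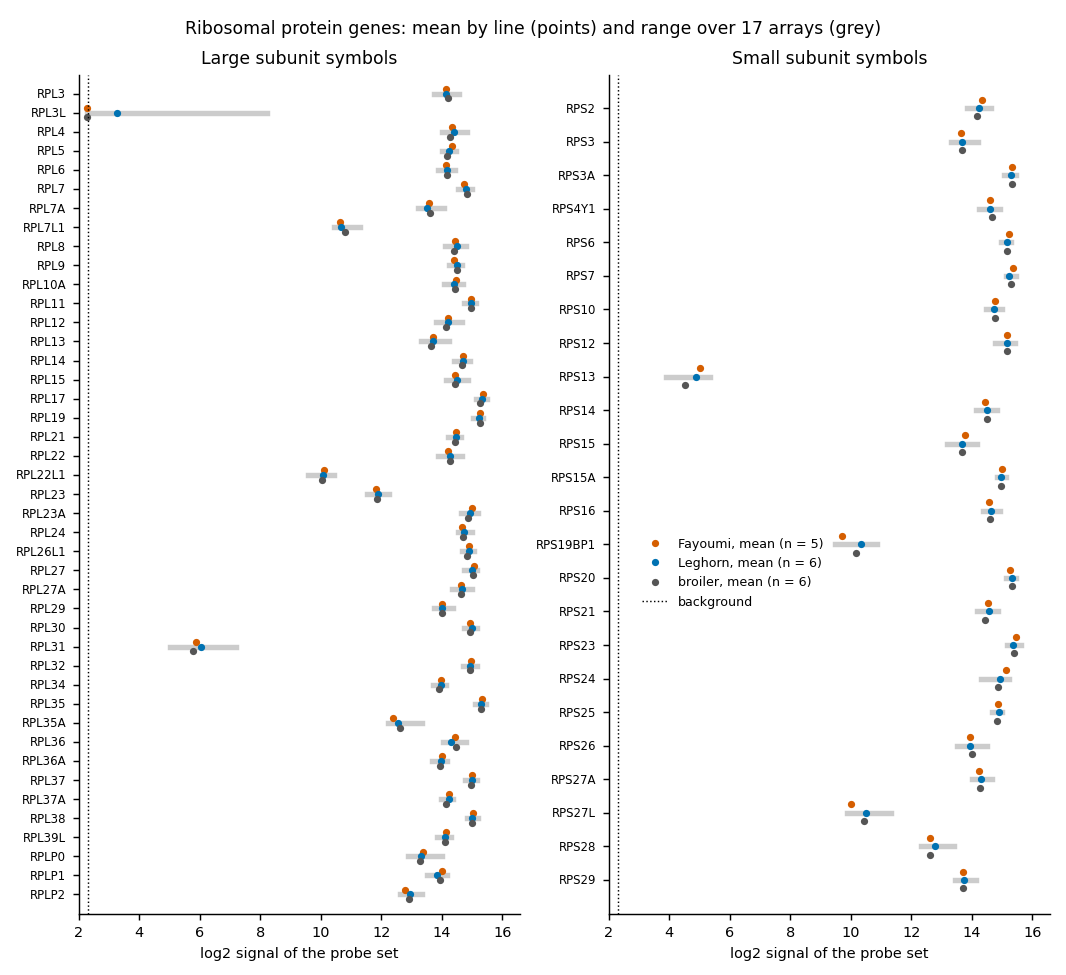
Log2 signal of the probe set of each of the 67 ribosomal protein genes, large subunit symbols left and small subunit symbols right; points are the means of Fayoumi (n = 5), Leghorn (n = 6) and broiler (n = 6), grey bars the range over 17 arrays and the dotted line the background of 2.29. Most genes lie above 13 with the 3 means close together, and RPL3L, RPL31 and RPS13 lie far lower.

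The low signals came from few genes. RPL31, a protein near the exit tunnel of the large subunit, had a mean of 5.90, and its other probe set had a mean of 4.93. RPS13 had a mean of 4.80, and its 4 other probe sets lay between 2.26 and 2.40. RPL3L stayed at background on 16 of 17 arrays. RPL22L1, RPL7L1, RPS27L and RPS19BP1 had means of 10.07, 10.71, 10.34 and 10.09.

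Members of strong signal varied less between arrays than other genes of like signal. Among genes with a mean of at least 13, the median standard deviation over the 17 arrays was 0.152 for the 56 members and 0.309 for the 206 other genes. The same order held within narrower ranges of signal: 0.0956 for 12 members and 0.142 for 15 other genes at 15 or more, 0.155 for 34 members and 0.271 for 66 others from 14 to 15, and 0.240 for 10 members and 0.345 for 125 others from 13 to 14. At means below 10 the order was the other way, with 0.539 for 3 members (RPL31, RPS13 and RPL3L) and 0.361 for 11129 other genes. These values are a description of the arrays, since genes are not replicates, and signals near the upper end of the scale may be compressed, which was not tested.

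No member passed the limma test at an adjusted p under 0.05 in any comparison. In Fayoumi against broiler 0 of 67 members were called, where 0.714% of the 37693 chicken probe sets and 0.961% of the 13008 genes were. The lowest adjusted p of a member was 0.445, and 3 members (RPS19BP1, RPS13 and RPL5) had an unadjusted p under 0.05, which is 4.48% of them against 13.9% of all 13008 genes. The median log2 difference was 0.02, with 39 members higher and 27 lower in Fayoumi. All members had overlapping Fayoumi and broiler arrays, whereas 4.37% of all genes had arrays without overlap. When arrays were weighted by their quality in limma, 2 members were called, RPS2 at 0.35 (adjusted p = 0.0134) and RPL23A at 0.24 (adjusted p = 0.0471); that setting called 1319 probe sets in place of 269.

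Leghorn against broiler likewise gave 0 called members, where 0.0% of the probe sets were called, and no member had groups without overlap, where 0.0231% of all genes had. No member had an unadjusted p under 0.05, against 6.62% of all genes, and the lowest adjusted p was 0.852. The median log2 difference was 0.01, with 42 members higher and 25 lower in Leghorn. In Fayoumi against Leghorn 0 members were called, where 0.626% of the probe sets and 0.761% of all genes were. Of all members only RPS19BP1 had an unadjusted p under 0.05, 1.49% of the 67 against 10% of all genes, and the median log2 difference was 0.0040. Array weights gave 2 called members here too, RPL36 at 0.27 (adjusted p = 0.0302) and RPLP1 at 0.22 (adjusted p = 0.0472), with 2042 probe sets called in place of 236. No member had Fayoumi and Leghorn arrays without overlap, where 3.83% of all genes had. Each line enters 2 of the 3 comparisons, so these are not independent. Without the arrays labelled Leghorn 2 and broiler 1, which went against their labels, 661 of the 37693 probe sets were called in Leghorn against broiler, and still 0 of the 67 members.

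The width of the intervals shows what these arrays could have missed. In Leghorn against broiler, the 95% confidence interval of the difference lay within 0.5 log2 units on either side of 0, a 1.41-fold change, for 62 of 67 members. This was so for 58 members in Fayoumi against broiler and for 59 in Fayoumi against Leghorn. Of all 13008 genes it was so for 5633 in Leghorn against broiler, 5102 in Fayoumi against broiler and 5240 in Fayoumi against Leghorn. Estimates within 0.1 log2 units of 0 were found for 54 members in Fayoumi against broiler, 56 in Leghorn against broiler and 53 in Fayoumi against Leghorn.

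Large and small subunit genes gave the same picture. For this and for the description by array, 60 members were used, 39 of the large and 21 of the small subunit: those with a mean above 10, without RPL7L1, RPL22L1, RPS27L and RPS19BP1; RPL26L1, RPL39L and RPS4Y1 were kept. This choice was made after the values were seen. In Fayoumi against broiler the median log2 difference was 0.02 over the 39 large subunit genes, with a range of -0.24 to 0.18, and 0.01 over the 21 small subunit genes, with a range of -0.09 to 0.27. In Leghorn against broiler the medians were 0.01 and 0.0005. In Fayoumi against Leghorn they were 0.01 for both subunits.

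Mitochondrial ribosomal proteins, coded by 67 measured genes with MRPL or MRPS symbols, had medians farther from 0 than the cytosolic members; the sets were not tested against each other. Their median log2 difference was -0.28 in Fayoumi against broiler, with 59 genes lower in Fayoumi, and -0.23 in Fayoumi against Leghorn, with 57 lower. In Leghorn against broiler it was -0.02. MRPL54 was the 1 gene called among them, at -1.52 (SE 0.31, limma adjusted p = 0.0353) in Fayoumi against broiler and -1.50 (adjusted p = 0.0397) in Fayoumi against Leghorn. These calls were lost in 13 and in 12 of 26 alternatives. Without the 5 arrays apart they held, at -1.004 and -1.20. Of all 13008 genes, 0.961% were called in Fayoumi against broiler and 0.761% in Fayoumi against Leghorn. An unadjusted p under 0.05 was found for 20.9% of the mitochondrial genes in Fayoumi against broiler, against 13.9% of all genes. In Fayoumi against Leghorn it was 10.4% against 10%, and in Leghorn against broiler 4.48% against 6.62%.

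The 5 arrays that stood apart bear on both sets. Without them, the median log2 difference of the mitochondrial genes was 0.02 in Fayoumi against broiler, -0.10 in Fayoumi against Leghorn and 0.12 in Leghorn against broiler. The median of the cytosolic members in Fayoumi against broiler then was 0.14, with 61 of 67 higher in Fayoumi, and in Fayoumi against Leghorn 0.09, with 62 of 67 higher. In Leghorn against broiler it was 0.05, with 51 higher. The sign of the difference turned for 22 of the 67 members in Fayoumi against broiler, for 27 in Fayoumi against Leghorn and for 9 in Leghorn against broiler. No member was called without those arrays either, a setting that kept 12 of the 17 arrays, among them broiler 1, Leghorn 1 and Leghorn 2. With each array centred on its own median, the cytosolic median in Fayoumi against broiler was -0.07 over all arrays, so no direction is given for the gene family between lines.

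**Figure D2:**
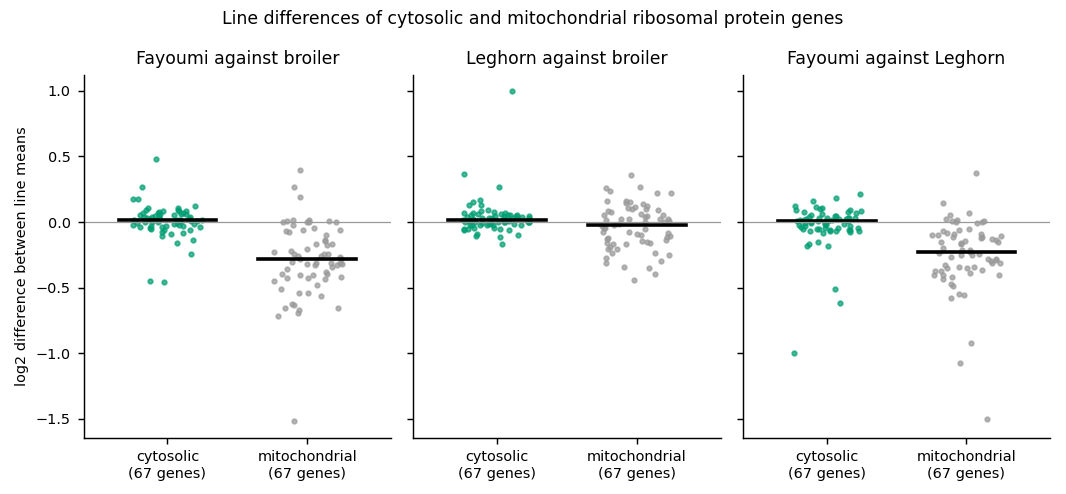
Log2 difference between line means for 67 cytosolic and 67 mitochondrial ribosomal protein genes in Fayoumi against broiler, Leghorn against broiler and Fayoumi against Leghorn; each point is 1 gene and black bars are medians. The cytosolic genes lie close to 0 in each comparison (medians 0.02, 0.01 and 0.0040), and the mitochondrial medians are -0.28, -0.02 and -0.23; these change without the 5 arrays that stood apart.

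Within lines the members moved together from array to array. For each of the 60 genes, the deviation from its own mean over 17 arrays was taken on each array. In Fayoumi the median deviations were 0.00, -0.05, 0.09, -0.05 and 0.06 on arrays 1 to 5. In Leghorn they were -0.24, -0.07, 0.15, -0.09, 0.04 and 0.27 on arrays 1 to 6. In broiler they were -0.02, 0.09, 0.07, 0.18, -0.16 and -0.20 on arrays 1 to 6. The Fayoumi arrays lay closest together, inside the range of both other lines.

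On single arrays nearly the whole set was high or low. On Leghorn 3 and on Leghorn 6, 57 of the 60 genes were above their own means, and on broiler 3 and 4 it was 54 and 55. On broiler 2, which also stood apart, it was 49, and on Fayoumi 3 and 5, which did not, it was 51. On Leghorn 1 and on broiler 5, 1 gene was above its own mean, and on broiler 6 it was 3. Leghorn 6 held the highest value of 40 genes, Leghorn 1 the lowest of 32 and broiler 6 the lowest of 19. Large and small subunit genes shifted alike: their medians were 0.23 and 0.30 on Leghorn 6, 0.17 and 0.18 on broiler 4, and -0.24 and -0.23 on Leghorn 1.

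**Figure D3:**
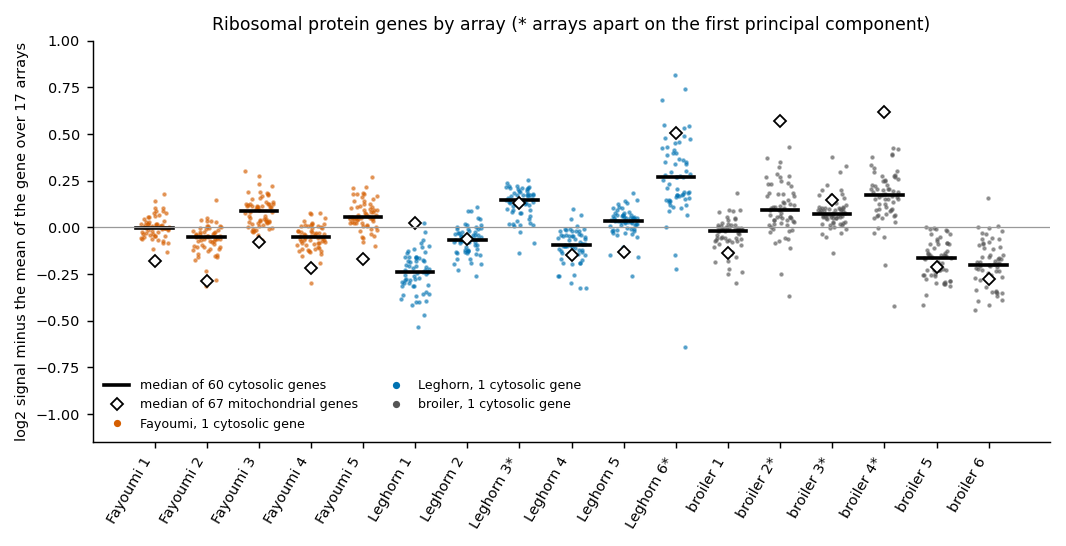
Deviation of the log2 signal from the gene's mean over 17 arrays, by array, for 60 cytosolic ribosomal protein genes (coloured points, black bars their median) and the median of 67 mitochondrial genes (open diamonds); asterisks mark the 5 arrays apart on the first principal component. Medians of the cytosolic genes run from -0.24 on Leghorn 1 to 0.27 on Leghorn 6, with the Fayoumi arrays between -0.05 and 0.09.

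The shift moved in part with the arrays that stood apart. On those 5 arrays the median deviation of the 60 genes was 0.07 to 0.27, and on the other 12 it was -0.24 to 0.09. Both ranges overlapped, as Fayoumi 3, at 0.09, lay above broiler 3, at 0.07. The median over the mitochondrial genes was 0.13 to 0.62 on the 5 arrays and -0.29 to 0.03 on the other 12. Of the 60 genes, 42 were above their own mean on all 5 arrays. For 10 genes all 5 values lay above all 12 others; these were RPL6, RPL7, RPL7A, RPL22, RPL23, RPL35A, RPLP2, RPS14, RPS26 and, by a margin lost in rounding, RPL3. The 5 arrays were set apart by the first principal component of 19345 probe sets, which held 52.9% of the variance. The probe sets of the 60 genes were among these, so the choice of arrays was not independent of them. Counts of this kind were not made for all genes, so they do not single out ribosomal protein genes. The ACTB values of the arrays are given above, and the part of RNA quality in the shift was not tested. Centring each array on its median moved arrays by -0.20 to 0.11. It kept the sign of the median on the 5 arrays (0.04 to 0.47) and turned it on Leghorn 5 (0.04 before, -0.02 after). Leghorn 1 was then at -0.14, and broiler 5 was the lowest, at -0.20. Before centring, the median deviation on Leghorn 1 over all genes above background on every array was -0.11.

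A few genes ran against the rest. RPS24, RPL5 and RPS7 were the 3 of 60 genes below their own means on Leghorn 6, broiler 2 and broiler 4 alike. RPS24, a small subunit protein needed for maturation of the small subunit RNA, had signals of 15.14, 15.11, 15.14, 15.04 and 15.23 in Fayoumi. Its lowest, median and highest signals were 14.32, 15.02 and 15.14 in Leghorn and 14.54, 14.96 and 15.14 in broiler. The low values were those of Leghorn 6, broiler 4 and broiler 2, and the other 14 arrays lay between 14.94 and 15.23. The log2 difference was 0.27 in Fayoumi against broiler (SE 0.14, limma adjusted p = 0.529) and 0.21 in Fayoumi against Leghorn (adjusted p = 0.802). Without the 5 arrays apart these were 0.11 and 0.09.

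RPL5, which carries the 5S RNA into the large subunit with RPL11, had signals of 14.38, 14.28, 14.47, 14.26 and 14.34 in Fayoumi. Lowest, median and highest were 14.02, 14.25 and 14.43 in Leghorn and 13.99, 14.21 and 14.32 in broiler. Of the Fayoumi values, 3 of 5 lay above all broiler values and 1 of 5 above all Leghorn values; the rest overlapped. Its log2 difference in Fayoumi against broiler was 0.175 (95% interval 0.01 to 0.34), with an unadjusted p of 0.0395 and a limma adjusted p of 0.462. RPL11, its partner, had a log2 difference of -0.02 (95% interval -0.14 to 0.10).

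Other large subunit genes named for the size of their differences also overlapped between lines. RPL35A had signals of 12.37, 12.22, 12.65, 12.24 and 12.46 in Fayoumi, with 12.24, 12.42 and 13.35 as lowest, median and highest in Leghorn and 12.24, 12.59 and 13.15 in broiler. Its highest values were on Leghorn 6 and broiler 4. The difference in Fayoumi against broiler was -0.24 (SE 0.22, limma adjusted p = 0.672), and 0.11 without the 5 arrays apart. A dimmer probe set of RPL35A was called with array weights at 1.54 in Fayoumi against broiler (adjusted p = 0.0169). Without the 5 arrays apart it was called at 1.53 in Fayoumi against Leghorn (adjusted p = 0.0490). Another went the other way, at -0.76 in Fayoumi against Leghorn after a filter on dim probe sets (adjusted p = 0.0445). Neither was called without such changes. RPL36 differed by -0.17 in Leghorn against broiler (SE 0.13, adjusted p = 0.852) and by 0.16 in Fayoumi against Leghorn (adjusted p = 0.802). RPL7A differed by -0.11 in Leghorn against broiler (SE 0.15, adjusted p = 0.983). RPL31 differed by 0.27 in Leghorn against broiler (SE 0.32) on signals that ran from 5.31 to 7.21 in Leghorn and from 5.02 to 6.44 in broiler; without Leghorn 6 the difference was 0.04.

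The stalk of the large subunit recruits the elongation factors through RPLP0, RPLP1 and RPLP2. RPLP1 had signals of 14.02, 13.92, 14.11, 13.93 and 14.06 in Fayoumi, with 13.52, 13.84 and 14.12 as lowest, median and highest in Leghorn and 13.70, 13.91 and 14.17 in broiler. The groups overlapped, and the log2 differences were 0.08 in Fayoumi against broiler, -0.10 in Leghorn against broiler and 0.18 in Fayoumi against Leghorn (SE 0.11, 0.11 and 0.11). With array weights, another probe set of RPLP1 was called lower in Fayoumi against broiler, at -0.62 (limma adjusted p = 0.032). RPLP0, a gene often used as a reference in PCR, ran from 13.31 to 13.63 in Fayoumi, from 13.01 to 14.01 in Leghorn and from 12.89 to 13.70 in broiler. Its mean was 13.39 ± 0.14 in Fayoumi, 13.33 ± 0.38 in Leghorn and 13.28 ± 0.35 in broiler (SD), so the spread within Leghorn and within broiler exceeded the differences between lines. RPLP2 differed by -0.14 in Fayoumi against broiler (SE 0.13), and by 0.07 without the 5 arrays apart.

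Among the small subunit genes, RPS2 had signals of 14.31, 14.30, 14.53, 14.32 and 14.26 in Fayoumi, with 14.09, 14.14 and 14.65 as lowest, median and highest in Leghorn and 13.83, 14.17 and 14.43 in broiler. The difference in Fayoumi against broiler was 0.18 (SE 0.12, limma adjusted p = 0.639), and 0.36 without the 5 arrays apart, where it was not called. With array weights, the other probe set of RPS2 was called in this comparison too, at 0.30 (limma adjusted p = 0.00608). RPS13, on its low signal, had 4.92, 5.14, 5.08, 4.55 and 5.36 in Fayoumi, with 4.55, 4.88 and 5.32 in Leghorn and 3.91, 4.71 and 4.98 in broiler. Its difference in Fayoumi against broiler was 0.48 (SE 0.21, adjusted p = 0.450), and 0.21 without the 5 arrays apart. RPS6, the substrate of the S6 kinases downstream of insulin and mTOR, averaged 15.25 ± 0.06 in Fayoumi, 15.17 ± 0.11 in Leghorn and 15.18 ± 0.06 in broiler; this gene was added after its values were seen.

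Paralogues and a gene that is no ribosomal protein were taken in by the symbol rule. RPL26L1, RPL39L and RPS4Y1 carry symbols of human paralogues, and their mean signals of 14.87, 14.11 and 14.63 lay in the range of the subunit genes. Their differences between lines ran from -0.09 to 0.06. RPL22L1 differed by 0.07 in Fayoumi against broiler (SE 0.18) and RPL7L1 by -0.16 (SE 0.19). Without the 5 arrays apart these were 0.31 and 0.17.

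RPS27L, a p53-induced relative of RPS27 in mammals, had signals of 9.88, 9.88, 10.18, 9.93 and 10.12 in Fayoumi, with 9.97, 10.35 and 11.33 as lowest, median and highest in Leghorn and 9.98, 10.21 and 11.14 in broiler. Of the Fayoumi values, 3 of 5 lay below all Leghorn and broiler values, and the high values were on Leghorn 1 and 6 and broiler 2 and 4. The log2 difference was -0.45 in Fayoumi against broiler (SE 0.27, limma adjusted p = 0.577) and -0.51 in Fayoumi against Leghorn (adjusted p = 0.789). Without the 5 arrays apart it was -0.04 in Fayoumi against broiler and -0.30 in Fayoumi against Leghorn.

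RPS19BP1 binds RPS19 and is known as an activator of the deacetylase SIRT1; it is not part of the mature ribosome. Its signals were 9.76, 9.48, 9.68, 9.60 and 10.02 in Fayoumi, with 9.82, 10.31 and 10.88 as lowest, median and highest in Leghorn and 9.77, 10.21 and 10.48 in broiler. Of the Fayoumi values, 4 of 5 lay below all Leghorn and broiler values and 1 overlapped them. The log2 difference was -0.62 in Fayoumi against Leghorn (95% interval -1.03 to -0.20, limma adjusted p = 0.259) and -0.45 in Fayoumi against broiler (95% interval -0.87 to -0.04, adjusted p = 0.445). Its other probe set gave -0.55 and -0.46. Without the 5 arrays apart the differences of the brightest probe set were -0.39 and -0.20.

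RPL3L replaces RPL3 in ribosomes of skeletal muscle and heart in mammals. Its signal was 8.23 on Leghorn 1 and 2.26 to 2.27, not above background, on the other 16 arrays. Muscle markers followed on the same array: all 9 measured genes of the list, of 10 listed, were above background there, and their summed level was 17.93, against 7.10 to 10.76 on the other Leghorn arrays. MYL1, MB and TNNC2 had signals of 15.51, 14.40 and 15.24 on Leghorn 1. On Fayoumi 2 and 3 the summed level was 13.61 and 12.41 with 8 markers above background, and MB was at 6.71 and 6.98, but RPL3L was at 2.26. The summed level of the 8 adipocyte markers was 16.50 on Leghorn 1, the lowest of the 17 arrays, which otherwise ran from 16.68 to 17.21.

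RPL3 itself was at 13.74 on that array, the lowest of its 17 values. The mean of RPL3 over the 17 arrays was 14.15. On Leghorn 1 the median deviation of the 60 cytosolic genes was -0.24, and 1 of them was above its own mean. Without Leghorn 1 the difference of RPL3L in Leghorn against broiler was 0.0021, against 0.998 with it (SE 0.83, limma adjusted p = 0.852). The median of the 67 members in Leghorn against broiler was 0.06 without Leghorn 1, with 58 higher in Leghorn. The part of muscle in these values was not tested.

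**Figure D4:**
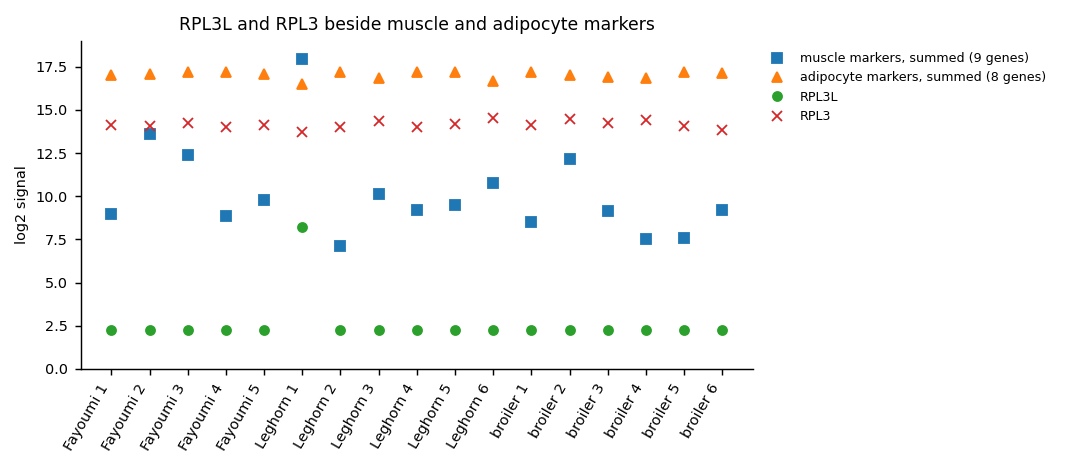
Log2 signal of RPL3L (circles) and RPL3 (crosses) and log2 of the summed signal of 9 skeletal muscle markers (squares) and 8 adipocyte markers (triangles) on each array. RPL3L is at 8.23 on Leghorn 1, where the muscle markers reach 17.93, and at 2.26 to 2.27 elsewhere, including Fayoumi 2, where the muscle markers reach 13.61.

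Several probe sets reported on 35 of the members, which gave 141 probe sets in all. Of the 74 that were not the brightest of their gene, 16 probe sets of 13 genes had a mean of at least 10. Their log2 differences stayed between -0.15 and 0.15 in Fayoumi against broiler, between -0.09 and 0.17 in Leghorn against broiler and between -0.26 and 0.14 in Fayoumi against Leghorn. The sign was that of the brightest probe set for 9, 15 and 12 of the 16. The remaining 58 had means from 2.26 to 9.48, and 8 of the 74 were above background on no array. In Fayoumi against broiler, Leghorn against broiler and Fayoumi against Leghorn, 0.714%, 0.0% and 0.626% of all 37693 chicken probe sets were called. Of the 141 probe sets of members, 2, 0 and 2 were. An unadjusted p under 0.05 was found for 13, 4 and 8 of them in these comparisons, or 9.22%, 2.84% and 5.67%, against 10.2%, 4.88% and 7.4% of the 37693 probe sets. The lines did not overlap on 3, 0 and 5 of the 141, where 3.05%, 0.0186% and 2.57% of all probe sets had no overlap.

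Both called probe sets were dim ones, of RPL27A and RPL29. RPL27A and RPL29 are both proteins of the large subunit. The dimmer probe set of RPL27A had signals of 6.71, 7.08, 6.60, 6.72 and 7.18 in Fayoumi. In Leghorn the lowest, median and highest were 2.26, 4.63 and 4.82, and in broiler 3.33, 4.70 and 4.82. All Fayoumi values lay above all others, and 4 of the 12 Leghorn and broiler arrays shared the value 4.82. The log2 difference was 2.37 in Fayoumi against broiler (SE 0.42, 5.18-fold, limma adjusted p = 0.0160) and 2.69 in Fayoumi against Leghorn (SE 0.42, adjusted p = 0.00610). Leghorn 6 was at the lowest value of the scale, 2.26, and without it the difference from Leghorn was 2.31 (4.96-fold, adjusted p = 0.00119).

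The brightest probe set of RPL27A did not show this. It had means of 14.65 ± 0.07 in Fayoumi, 14.67 ± 0.23 in Leghorn and 14.63 ± 0.20 in broiler, and its log2 differences were 0.01 in Fayoumi against broiler and -0.03 in Fayoumi against Leghorn. Averaging the 2 probe sets gave a called difference of 1.19 in Fayoumi against broiler (adjusted p = 0.00688) and 1.33 in Fayoumi against Leghorn (adjusted p = 0.00292). The call of the dimmer probe set against broiler was lost without Fayoumi 2 (adjusted p = 0.0522) and without Fayoumi 5 (0.0511), at log2 differences of 2.32 and 2.29. A block for the replicate number ended this call as well (2.21, adjusted p = 0.0655).

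RPL29 had 5 probe sets, and a dimmer one went the other way. This one had signals of 7.25, 6.99, 7.40, 6.87 and 7.25 in Fayoumi, with 7.57, 8.0 and 8.36 as lowest, median and highest in Leghorn and 7.56, 8.0 and 8.37 in broiler. All Fayoumi values lay below all others. The log2 difference was -0.86 in Fayoumi against broiler (SE 0.17, a 1.82-fold lower signal, limma adjusted p = 0.0344) and -0.84 in Fayoumi against Leghorn (1.79-fold lower, adjusted p = 0.0423). The brightest probe set had means of 14.02 ± 0.08 in Fayoumi, 14.01 ± 0.21 in Leghorn and 14.01 ± 0.23 in broiler. With array weights, another probe set of RPL29 was called higher in Fayoumi against broiler, at 0.12 (limma adjusted p = 0.0340). Yet another was called higher in Fayoumi against Leghorn, at 0.19 (adjusted p = 0.0375). Without the 5 arrays apart the difference of the first dimmer probe set against broiler was -0.60 and was not called (adjusted p = 0.252). The call of that probe set against broiler was lost in 11 of 26 alternatives. Its call against Leghorn was lost in 18, among them most of those that left out 1 array.

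**Figure D5:**
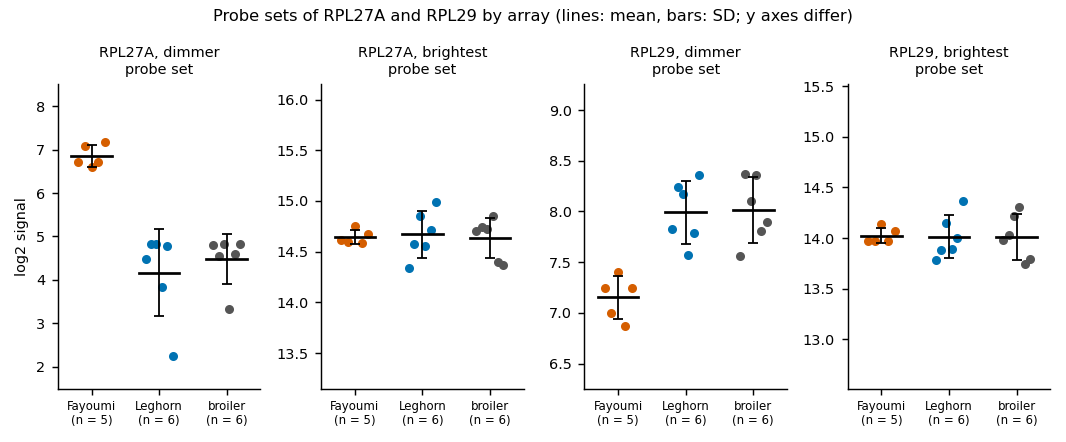
Log2 signal of the dimmer and the brightest probe set of RPL27A, and of a dimmer and the brightest one of RPL29. The lines are Fayoumi (n = 5), Leghorn (n = 6) and broiler (n = 6). Points are arrays, horizontal lines means and bars the SD, and the y axes differ between panels. The Fayoumi arrays lie apart on both dimmer probe sets (means 6.86 for RPL27A and 7.15 for RPL29) and among the others on both brightest ones.

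Dim probe sets of RPL21 and RPL22L1 differed between arrays without being called over all arrays when arrays were not weighted. One of RPL21 had 6.57, 6.33, 6.63, 6.76 and 6.76 in Fayoumi and no overlap with broiler, which ran from 5.28 to 6.19 (difference 0.69, limma adjusted p = 0.203). Without the arrays labelled Leghorn 2 and broiler 1, this probe set was called in Fayoumi against broiler at 0.74 (adjusted p = 0.0484) and in Fayoumi against Leghorn at 0.98 (adjusted p = 0.0108). A brighter one of RPL21 was then called too, at 1.96 in Fayoumi against broiler (adjusted p = 0.0489), against 1.65 over all arrays. Yet another of RPL21 was at 7.35 on the array labelled Leghorn 2, where the other Leghorn arrays ran from 4.28 to 6.26, and at 5.37 on the array labelled broiler 1, where the other broiler arrays ran from 6.47 to 7.78. Without those 2 arrays its difference in Leghorn against broiler was -1.60 (adjusted p = 0.0265), the 1 call among the probe sets of members in that comparison. The dim probe set of RPL22L1 differed by 1.88 in Fayoumi against Leghorn with no overlap (adjusted p = 0.153). With array weights, a dim probe set of RPL22L1 was called in this comparison at 1.77 (limma adjusted p = 0.002). The first RPL21 probe set above was called there too, at 0.84 (adjusted p = 0.00293). A probe set of RPL9, not its brightest, was called lower there, at -0.82 (adjusted p = 0.00724). The brighter one of RPL21 was called with weights in Fayoumi against broiler at 1.155 (adjusted p = 0.0113). That setting called 2042 probe sets in place of 236 in Fayoumi against Leghorn, and 1319 in place of 269 in Fayoumi against broiler.

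Genes that work on or with the ribosome were read from 6 lists. RACK1, a small subunit protein outside the symbol rule, was the 1 measured gene of 4 listed and averaged 14.06 ± 0.13 in Fayoumi, 14.03 ± 0.34 in Leghorn and 14.01 ± 0.31 in broiler. Of 45 measured ribosome biogenesis genes, 1 rose and 1 fell in Fayoumi against broiler, where 125 of all 13008 genes were called. An unadjusted p under 0.05 was found there for 11 of the 45, or 24.4%, against 13.9% of all genes. WDR43, a factor of the small subunit processome, had means of 8.06 ± 0.17 in Fayoumi, 7.29 ± 0.28 in Leghorn and 7.18 ± 0.15 in broiler, with a difference of 0.88 in Fayoumi against broiler (SE 0.13, limma adjusted p = 0.00278) and 0.78 in Fayoumi against Leghorn (adjusted p = 0.00736). Its call against broiler held in all 26 alternatives and that against Leghorn in all but 2. WDR12, a factor of large subunit maturation, fell by 1.71 in Fayoumi against broiler (SE 0.33, adjusted p = 0.0264), with a call lost in 7 of 26 alternatives, among them the one without the 5 arrays apart (adjusted p = 0.334). The median difference of the list in Fayoumi against broiler was 0.11, against -0.0003 over all 13008 genes.

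Translation factors gave 1 call. EIF5A2, a translation factor of the eIF5A family, rose in Fayoumi against Leghorn by 1.01 (SE 0.19, limma adjusted p = 0.0233), with means of 9.67 ± 0.14 in Fayoumi and 8.66 ± 0.48 in Leghorn. It was the 1 of 12 measured elongation genes called, 8.33% against 0.761% of all genes, and was lost in 8 of 26 alternatives. The median difference of that list was 0.09 in Fayoumi against Leghorn and 0.15 in Fayoumi against broiler. An unadjusted p under 0.05 was found for 4 of the 12 in each of these, or 33.3%, against 10% and 13.9% of all genes. In Leghorn against broiler it was found for 0 of the 12, against 6.62%. EEFSEC, the selenocysteine elongation factor, differed by -0.61 in Fayoumi against broiler (adjusted p = 0.0602). Of 29 measured initiation factors 0 were called with limma in any comparison, with an unadjusted p under 0.05 for 4 in Fayoumi against broiler, 0 in Leghorn against broiler and 1 in Fayoumi against Leghorn, against 13.9%, 6.62% and 10% of all genes. EIF1B at -0.56 and EIF3M, a subunit of eIF3, at 0.48 in Fayoumi against broiler were nearest to a call (adjusted p = 0.353 and 0.431), and the list median there was 0.18.

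Regulators and chaperones of ribosomal proteins gave no call with limma. Of 20 regulators, 3 had an unadjusted p under 0.05 in Fayoumi against broiler, 1 in Leghorn against broiler and 2 in Fayoumi against Leghorn. TIA1, an RNA-binding translational repressor, differed by 0.76 in Fayoumi against broiler (adjusted p = 0.143), and LARP1 by -0.30 in Fayoumi against Leghorn (adjusted p = 0.451) at a mean signal of 2.89 in Fayoumi. Of 16 chaperones and quality control genes, 2, 1 and 5 had an unadjusted p under 0.05 in the same comparisons, or 12.5%, 6.25% and 31.2%. Of all genes, 13.9%, 6.62% and 10% had. BCCIP differed by 0.94 in Fayoumi against Leghorn (adjusted p = 0.0565) and NACA, a subunit of the nascent chain complex, by -0.80 (adjusted p = 0.204).

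Markers of other cell types varied beside the ribosomal protein genes. FABP4 and ADIPOQ marked the tissue as adipose, with FABP4 at 16.12 ± 0.04 in Fayoumi, 15.99 ± 0.18 in Leghorn and 16.00 ± 0.14 in broiler. ADIPOQ differed by -1.14 in Fayoumi against broiler (limma adjusted p = 0.0770). Of the 8 adipocyte markers, 5 were higher and 3 lower in that comparison, with a list median of 0.01. On the 5 arrays apart, where the ribosomal protein signals were high, the summed level of 8 endothelial markers was 14.14 to 14.64, against 14.58 to 15.33 on the other 12. That of 8 adipocyte markers was 16.68 to 17.001 on the 5 arrays and, except for Leghorn 1 at 16.50, 17.03 to 17.21 on the others. That of 9 macrophage markers was 15.60 to 16.04 against 15.22 to 15.85, and that of 7 T lymphocyte genes 9.81 to 11.52 against 9.20 to 11.28. Summed B lymphocyte and erythrocyte markers overlapped widely between both sets of arrays. TIMD4 rose by 1.63 and LMO2 fell by 1.11 in Fayoumi against broiler (limma adjusted p = 0.0141 and 0.00798), the 2 markers called. Both calls were lost without the 5 arrays apart (1.09 and -0.97, adjusted p = 0.165 and 0.129). MARCO, GZMA, CD3E, JCHAIN, EGFL7, HBA1, POU2AF1, HEMGN, MYL1 and TNNT3 were not called. In Fayoumi against Leghorn, MARCO differed by -2.54 (limma adjusted p = 0.0540) and JCHAIN by -1.68 (adjusted p = 0.104), both without overlap. An unadjusted p under 0.05 was found there for 44.4% of macrophage, 25% of endothelial and 12.5% of adipocyte markers, against 10% of all genes. In Fayoumi against broiler it was 33.3%, 37.5% and 12.5%, against 13.9%. For muscle and erythrocyte markers it was 0% in both. TIMD4 made up 11.1% of the macrophage list and LMO2 12.5% of the endothelial list, where 0.961% of all genes were called. Of the 8 endothelial markers, 6 were higher in Fayoumi against broiler (list median 0.37), and LMO2 and EGFL7 were the 2 lower ones. Of the 9 macrophage markers, 5 were higher and 4 lower (list median 0.06). The part of cell composition in the signals of ribosomal protein genes was not tested.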

How the data were processed

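RNA of 17 adipose samples of male chickens was hybridised to Affymetrix chicken arrays, 1 array per sample. Per the submitters' processing notes, R 2.13.2, RMA and GCRMA were used; which of the 2 made the table was not stated in the sources used here. The deposited values are log2 signals, which ran from 2.26 to 16.2 with 37.2% at the lowest value, so differences of dim probe sets are compressed. The table was used as deposited, its 17 columns all matched a sample, and 842 probe sets not from chicken were left out.

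Groups came from the labels. limma 3.58.1 in R 4.3.3 fitted 1 model with line as factor to 37693 probe sets (lmFit, eBayes), with Benjamini-Hochberg adjustment over all of them and a threshold of 0.05. Members were chosen by the symbols of the platform annotation. For all other genes the RefSeq symbol of the same gene number was used where there was one, and otherwise the annotated symbol. All 67 members were matched by gene number to the RefSeq chicken gene table. Some genes with such symbols are not reported here. Background was set from 80 control probe sets. The fit was tested on simulated data with independent noise, which does not cover shifts that many probe sets of an array share. The number of arrays per line limits the precision.

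Members named were those called, the 4 largest differences in each direction, the 5 highest and 5 lowest means, the 5 largest SDs, the paralogues, the gene that is no ribosomal protein, members with another probe set called, and the 2 genes nearest to a call per list. RPLP0, RPLP2, RPL9, RPL11, RPL3, RPL21, RPL23A, RPS6, RPS7 and the 10 genes high on 5 arrays were added after their values were seen. Members and lists were chosen with earlier results of these data known. Alternatives covered variance trend, array weights, filters, normalization, probe set averaging, single lines, a replicate block and arrays left out. No date or batch was used.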

Additional observations from a re-analysis of the deposited data

Results flagged for a closer look

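In 81 groups of 5 or 6 arrays, 1 value was set against the others by Dixon's ratio, and 6 stood out. The genes were named partly for their signal, spread or differences in these same data. The 1 in 20 groups that chance gives for groups not chosen by their values is therefore no yardstick here. RPL3L had the same value on all Fayoumi and on all broiler arrays, so those groups could not stand out. RPL3L in Leghorn reached 8.23 on Leghorn 1, against 2.26 to 2.27 on the others. RPS24 in Leghorn fell to 14.32 on Leghorn 6, against 14.94 to 15.14. The dimmer probe set of RPL27A in broiler was at 3.33 on broiler 4, against 4.56 to 4.82. In Fayoumi, 3 genes were highest on Fayoumi 3: RPL17 at 15.49 against 15.31 to 15.36, RPS2 at 14.53 against 14.26 to 14.32, and RPS20 at 15.31 against 15.25 to 15.26. Fayoumi 3 had 51 of 60 cytosolic genes above their own means. The causes were not tested.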

How the results depend on the processing

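Over 27 alternatives, 0 members were called in Leghorn against broiler, and in the other comparisons 2 each with array weights and 1 each when probe sets of a gene were averaged (RPL27A), with 0 when any single array was left out. None of the 59 results for single genes was called over all arrays, so staying on the same side of the threshold means staying uncalled. Of their 1531 alternative values, 1528 stayed uncalled and 3 were called with array weights. The sign changed in 109 of the 1531. The dimmer probe sets of RPL27A and RPL29, whose lost calls are given above, are not among these results. The member median ranged from -0.07 to 0.14 in Fayoumi against broiler, -0.03 to 0.09 in Leghorn against broiler and -0.06 to 0.09 in Fayoumi against Leghorn.

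Probe sets of members called in Fayoumi against broiler, 2 over all arrays, numbered 9 with array weights, 1 with only the 2 lines, 4 without Leghorn 2 and broiler 1, 1 without the 5 arrays apart and 0 to 3 with single arrays left out. In Fayoumi against Leghorn they numbered 10 with array weights, 1 with quantile normalization, 1 after centring, 1 with only the 2 lines, 3 after a filter on dim probe sets, 3 without Leghorn 2 and broiler 1, and 1 to 2 with single arrays left out. In Leghorn against broiler 1 was called without Leghorn 2 and broiler 1, where 661 of the 37693 probe sets were. Of all 37693 probe sets, those called in Fayoumi against broiler were 1319 with array weights, 208 with only the 2 lines and 190 without the 5 arrays apart. In Fayoumi against Leghorn they were 2042 with array weights, 240 with quantile normalization, 301 after centring and 191 with only the 2 lines. The causes were not tested.

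With the replicate number as a block, 0 probe sets of members were called in Fayoumi against broiler and 1 in Fayoumi against Leghorn, and over all probe sets 141 and 139. Of 16 same-numbered pairs, 4 correlated above 0.1 (range -0.79 to 0.60), so the numbers were not taken as pairs.

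Over all probe sets, calls in Fayoumi against broiler were 505 of 21177 after a filter on dim probe sets, 686 without Leghorn 2 and broiler 1, and 148 (without Fayoumi 2) to 613 (without broiler 1) with single arrays left out. In Fayoumi against Leghorn they were 426 after the filter, 544 without Leghorn 2 and broiler 1, 397 without the 5 arrays apart, and 158 (without Fayoumi 4) to 429 (without Leghorn 2). In Leghorn against broiler they were 9 with array weights, 1 without the 5 arrays apart and 118 without broiler 1.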
